A study of Mus musculus with 3 samples.

Results

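Gm26917-rich cells were 166 of the 4488 filtered cells of 3 mouse pancreatic tumours. A cell was counted among them when the lincRNA Gm26917 made up 2% or more of its unique molecular identifiers (UMIs, 1 per captured RNA molecule). Filtered cells had 1000 or more UMIs, 500 or more genes, at most 20% mitochondrial UMIs, and 60% or more of their barcode's UMIs over the 3 libraries in their own library. There were 18 Gm26917-rich cells among 1431 in tumour 1, 2 among 253 in tumour 2 and 146 among 2804 in tumour 3. They are set against 1371, 246 and 2177 Gm26917-low cells of the same tumours, in which the RNA made up less than 0.5%. A middle class, from 0.5% to under 2%, held 42, 5 and 481 cells. The gate was chosen from these cells, and Gm26917, Gm26870, Hexim1, Plk2, Jun and Myc were named with it, so these genes are described here without tests.

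All 3 tumours carry the same labels and form 1 group. Donor mice were Msi2-Myc; R26-LSL-tdTomato animals, a model that the series title spells Musashi2-CreER-MycT58A. CreER is driven by the Msi2 locus, so MYC T58A and the red reporter can come on in any cell that uses it when tamoxifen is given. The title also names ASCP, PDAC and ACC tumours, and no tumour is assigned to one of them here. Tamoxifen preceded the sorting of red epithelial cells by 5 weeks, and these were transplanted into the pancreas of immunodeficient NSG mice. EpCAM-positive cells of the end-stage tumours were sorted and sequenced by droplet 3' RNA-seq, 1 library per tumour. Donors and recipients were not named further. The p-values below come from fits with a term for the tumour. They set each class difference against the spread left among the sums of the 3 classes, which the fit estimates partly from all genes together. In the main fit only tumours 1 and 3 add to this spread. Small p-values are therefore not a measure of replication across tumours.

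Gm26917 lies beside Gm42418 and AY036118 on chromosome 17, genes whose counts in mouse libraries are commonly read as ribosomal RNA. Hexim1 is an inhibitory partner of P-TEFb, the kinase that releases paused RNA polymerase II, and its transcript is a known readout of P-TEFb release. Jun and Myc encode short-lived transcription factors whose transcripts appear and decay fast after a stimulus, and Plk2 encodes a kinase induced in the same way and by p53. Replication-dependent histone messages end in a stem-loop instead of a poly(A) tail, and their normal peak is in S phase.

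Gm26917 (ENSMUSG00000097971) is annotated on the plus strand at chr17:39843013-39846341 (mm10). Gm42418 at chr17:39846958-39848788 follows on the same strand, and AY036118 at chr17:39847113-39848035 lies opposite it. The longest annotated transcript of Gm26917 has 3329 bases with a G+C content of 69.1%, and none of its 3305 distinct 25-base words occurs in a transcript of another gene, on either strand. Its longest run of A is 4 bases. Its last 100 bases, chr17:39846242-39846341, are shown because 3' libraries read the ends of RNAs; 73% of them are G or C, and nothing in them is marked by capitals.
Gm26917: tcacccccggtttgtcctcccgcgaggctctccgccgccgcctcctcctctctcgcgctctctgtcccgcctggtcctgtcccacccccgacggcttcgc

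Gm26870 (ENSMUSG00000097312, minus strand, chr9:3000282-3038313) is a lincRNA whose letters recur in 4 genes described below. On either strand it holds 31.2% of the distinct 25-base words of Gm10800 and 25.2% of those of Gm10801, both on chromosome 2. It holds 46.3% of the words of Gm10719 and 72.7% of those of Gm10721, which lie within its span on chromosome 9. The longest run that Gm26870 transcripts share with Gm10800 is 99 bases, in the opposite orientation. It is printed on the strand of Gm10800, chr2:98666906-98667004 (minus strand), with the 51 bases that Gm10801 holds too in capitals. UMIs of these genes can be split between copies by the counting, so the levels of single copies are uncertain.
Gm10800 and Gm26870: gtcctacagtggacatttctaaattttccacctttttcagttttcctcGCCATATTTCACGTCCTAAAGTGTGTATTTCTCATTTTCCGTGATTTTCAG

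Promoter windows of 250 bases before to 50 after the start (RefSeq, GRCm38.p6) were available for Hexim1, Plk2 and Jun; they are shown because these genes named with the gate were high together. TGACNTCA, the letters of cAMP response elements and of the Jun site, and the box CCAAT were searched on both strands and are in capitals, CCAAT as ATTGG where it is on the other strand; no matches overlapped. TGACNTCA stood in the windows of Plk2 and Jun and CCAAT in those of Hexim1 and Jun. The windows are chr11:103116075-103116374 (plus strand) for Hexim1, chr13:110394794-110395093 (plus) for Plk2 and chr4:95052173-95052472 (minus) for Jun.
Hexim1: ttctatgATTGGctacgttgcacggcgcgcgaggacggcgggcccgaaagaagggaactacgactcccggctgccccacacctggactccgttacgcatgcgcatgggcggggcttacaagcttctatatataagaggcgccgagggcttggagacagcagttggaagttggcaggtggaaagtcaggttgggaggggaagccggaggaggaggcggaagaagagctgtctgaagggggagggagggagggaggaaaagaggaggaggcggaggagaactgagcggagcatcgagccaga
Plk2: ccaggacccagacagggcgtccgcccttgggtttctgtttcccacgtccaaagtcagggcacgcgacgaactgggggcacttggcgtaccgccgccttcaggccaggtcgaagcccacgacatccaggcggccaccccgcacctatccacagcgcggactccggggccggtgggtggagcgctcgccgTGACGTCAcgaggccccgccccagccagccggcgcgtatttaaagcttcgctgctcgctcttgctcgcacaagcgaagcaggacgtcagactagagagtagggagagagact
Jun: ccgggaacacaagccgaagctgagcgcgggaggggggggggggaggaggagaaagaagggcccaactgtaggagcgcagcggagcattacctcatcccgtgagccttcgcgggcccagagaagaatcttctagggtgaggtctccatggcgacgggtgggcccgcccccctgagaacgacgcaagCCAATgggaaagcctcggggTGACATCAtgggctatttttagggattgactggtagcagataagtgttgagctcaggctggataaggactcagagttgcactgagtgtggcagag

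TGACNTCA occurred in 8.83% of 32851 windows, CCAAT in 37.4%. Among genes higher in Gm26917-rich cells (defined below) TGACNTCA was found for 50 of 597 with a window, 8.38%, against 8.35% of the 5498 tested genes with one. CCAAT was found for 47.4% of them, against 42.6% of the tested genes. The letters TATAAA were counted too, and were found for 11.2% of higher, 12.2% of lower and 8.73% of tested genes with a window. The 597 were the same with the Hist genes left out, so no higher Hist gene had a window.

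The libraries held 11502184, 9737397 and 16521484 UMIs, and every barcode with 1000 or more UMIs also had 10 or more in the other libraries. In Gm26917-rich cells the median share of the barcode's UMIs in its own library was 77.1%, 80.5% and 81.2%, so every one of these barcodes is shared between libraries. The own-library filter removed 0, 1 and 0 barcodes that met the gate, and 1 Gm26917-rich barcode of tumour 1 had 1000 or more UMIs in another library. Scrublet called 4, 3 and 0 doublets, too few to be informative; no cell was removed for it, and leaving out the 5% of cells with the highest scores served as an alternative. Median doublet scores were 0.0566, 0.041 and 0.0612 in Gm26917-rich cells and 0.066, 0.0559 and 0.0779 in Gm26917-low cells.

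Gm26917-rich cells made up 1.26% of the cells of tumour 1, with an exact (Clopper-Pearson) 95% interval of 0.747% to 1.98%. They made up 0.791% in tumour 2, where the interval was 0.0959% to 2.83%, and 5.21% in tumour 3, where it was 4.41% to 6.09%. These intervals cover counting error only. The median Gm26917 share was 4.19% of UMIs in tumour 1 and 5.44% in tumour 3, whose highest cell held 27.2%; the 2 cells of tumour 2 held 4.83% and 26.9%. In barcodes of 10 to 100 UMIs, which stand for free RNA, Gm26917 made up 0.71%, 0.611% and 1.07%, so the gate lies above the level in the free RNA of every library. Barcodes that were cells in another library were not taken out of these sums. All free RNA levels given here can therefore hold some UMIs shared with such cells. Just inside the gate, tumour 3 had cells of 2.03%, 2.03% and 2.11%, and just outside cells of 1.95%, 1.95% and 1.9%. In tumour 1 the nearest cells were 2.06% inside and 1.99% outside.

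Their total UMIs were in the range of other cells. The median was 1905, 2712.5 and 1923.5 UMIs in Gm26917-rich cells and 1621, 1332.5 and 1652 in Gm26917-low cells. Thinned to 1000 UMIs without Gm26917, the median gene number was 490 and 528.5 in Gm26917-rich cells of tumours 1 and 3, against 563 and 511 in Gm26917-low cells; 2 Gm26917-rich cells of each tumour were too shallow to thin, as were 0 and 3 Gm26917-low cells. Ribosomal protein transcripts took a median of 10.2%, 8.18% and 14.2% of UMIs in Gm26917-rich cells, below the 26.1%, 24.7% and 22.9% of Gm26917-low cells. Mitochondrial transcripts took 3.53%, 1.46% and 2.72% in Gm26917-rich cells and 2.24%, 3.01% and 1.61% in Gm26917-low cells.

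Gm42418, the neighbour of Gm26917, took a median of 23.5%, 17.4% and 20.4% of UMIs in Gm26917-rich cells, against 1.73%, 1.2% and 2.71% in Gm26917-low cells. High Gm42418 was not particular to them. In the middle class of tumour 3, 481 cells with a median Gm42418 share of 24.4% had a median mitochondrial share of 0.3%, and the genes named with the gate were far lower there, as shown next. Levels below are UMIs of a class or list summed over its cells and scaled to a total of 1000000 without Gm26917 (CPM).

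Gm26870 stood at 7928, 8607 and 4142 CPM in Gm26917-rich cells of tumours 1, 2 and 3, against 85.0, 77.5 and 108.3 CPM in Gm26917-low cells. Free RNA held 272.5, 160.2 and 216 CPM, below the Gm26917-rich level in every tumour. Hexim1 stood at 656.5, 1025 and 531 CPM in Gm26917-rich cells and at 31.2, 22.7 and 33.8 CPM in Gm26917-low cells. Tumour 2 rests on 5 Hexim1 UMIs. Every Gm26917-rich level of both genes was above every Gm26917-low level. This is a description, as both were named with the gate, and its share over all genes was not counted.

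Plk2 had 429.2, 204.9 and 623.9 CPM in Gm26917-rich cells, the second from 1 UMI, and 23, 18.9 and 47.2 CPM in Gm26917-low cells. Myc had 1161, 1434 and 401.6 CPM in Gm26917-rich cells, against 45.3, 41.6 and 47.3 CPM in Gm26917-low cells; UMIs of the MycT58A allele and of the endogenous gene cannot be told apart here. Jun had 6615, 4713 and 2847 CPM in Gm26917-rich cells and 280.7, 353.5 and 639.7 CPM in Gm26917-low cells. Free RNA held 239.3, 342.6 and 259.1 CPM of Plk2, above the Gm26917-rich level in tumour 2, and 67.7, 48.8 and 46 CPM of Myc. No Gm26917-rich level of these 3 genes fell in the range of Gm26917-low cells. For Plk2 in tumour 2 counting error leaves this open: the exact Poisson interval of its 1 UMI, 5.19 to 1142 CPM, holds every Gm26917-low level of Plk2. The order of levels is a description here too, as Plk2, Myc and Jun were named with the gate. How many of all genes show such an order was not counted. Jun showed the smallest ratio in tumour 3, 4.45, beside 8.49 for Myc, 13.2 for Plk2, 15.7 for Hexim1 and 38.2 for Gm26870.

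Free RNA was rich in Jun, with 2743, 3483 and 3499 CPM, so the Jun level of Gm26917-rich cells in tumour 3, 2847 CPM, was not above it. Set against the UMIs of the nuclear RNA Malat1, Jun had a ratio of 1.71 and 0.776 in Gm26917-rich cells of tumours 1 and 3, 0.071 and 0.101 in Gm26917-low cells and 0.122 and 0.127 in free RNA. The ratio of Myc was 0.301 and 0.11 in Gm26917-rich cells, 0.0115 and 0.00745 in Gm26917-low cells and 0.00301 and 0.00166 in free RNA. Malat1 itself was far higher in free RNA (22490 and 27610 CPM) than in Gm26917-rich cells (3863 and 3667 CPM), so for Myc the ratio of Gm26917-low cells lay above that of free RNA too. The part of free RNA in these levels was not tested.

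**Figure D1:**
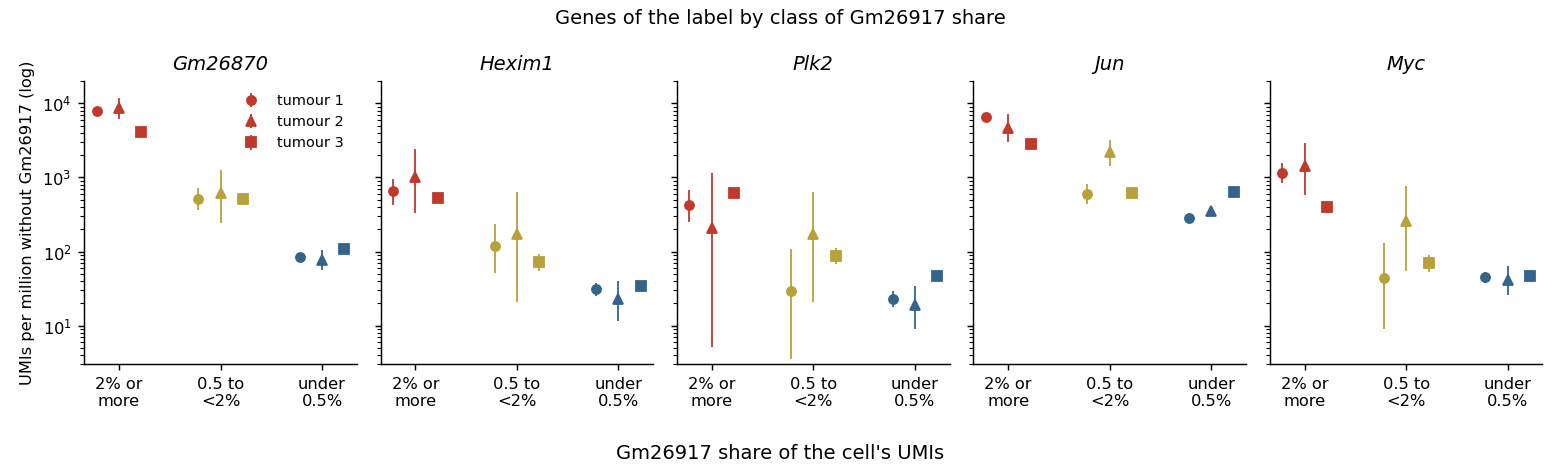
CPM (log scale) of the 5 genes named with the gate, by class of Gm26917 share and tumour; bars are exact 95% Poisson intervals, which cover counting error only. In tumour 3 Myc has 401.6 CPM in cells of 2% or more, 69.6 CPM in the middle class and 47.3 CPM under 0.5%.

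The middle class did not carry the same levels. In tumour 3 its 481 cells had 512 CPM of Gm26870, 72.2 of Hexim1, 88 of Plk2, 621 of Jun and 69.6 of Myc. Over bins of Gm26917 share in tumour 3, Hexim1 read 25.6, 63.7, 47.1, 53.3, 189.7, 267.9 and 670.7 CPM from the lowest bin (under 0.1%) to the highest (4% or more). Myc read 37.7, 93.4, 57.5, 60.9, 123.3, 287 and 462.4 CPM. Jun read 658.6, 831.3, 467.7, 573, 919.8, 2363 and 3105 CPM. From 0.1% to 1% Hexim1 and Myc stayed between 47.1 and 93.4 CPM. All 3 were higher in each bin above 1% than in the one before it. For Jun the largest of these steps was at the 2% gate. For all 3 the bin from 1% to 2% was already above all lower bins.

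**Figure D2:**
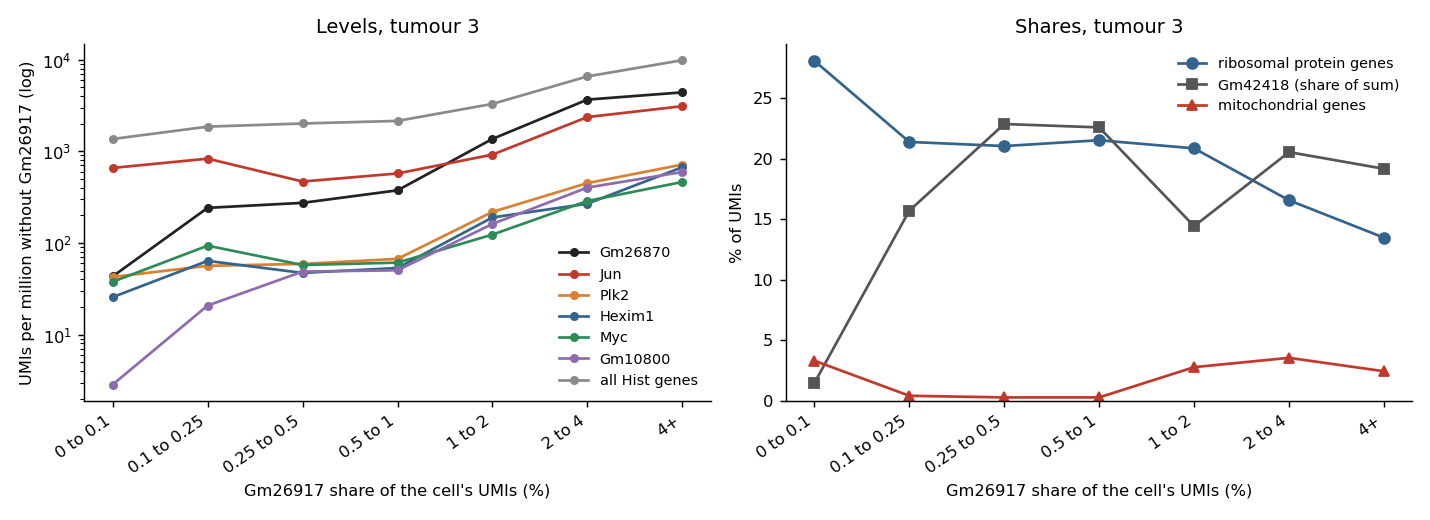
Left, CPM (log scale) of genes named with the gate, Gm10800 and all Hist genes over bins of Gm26917 share in tumour 3; right, the median share of ribosomal protein and mitochondrial UMIs per cell and the Gm42418 share of the bin's sum. Gm42418 is already at 157000 CPM in the bin from 0.1% to 0.25%, where Hexim1 is at 63.7 CPM.

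Cells differed in which of these genes they held. After thinning to 1000 UMIs, Hexim1 was detected in 5 of 16 and 47 of 144 Gm26917-rich cells of tumours 1 and 3, Plk2 in 6 and 50, Myc in 7 and 39, and Jun in 11 and 115. Among Gm26917-low cells Myc was detected in 67 of 1371 and 82 of 2174. Of the 4 genes, 2 or more were detected in 9 of 16 (56.2%) and 83 of 144 (57.6%) Gm26917-rich cells. This held for 36 of 1371 (2.63%) and 88 of 2174 (4.05%) Gm26917-low cells, and for 3 of 42 and 40 of 479 cells of the middle class. The 4 genes were named with the gate, and each was detected in a larger share of Gm26917-rich cells, so a larger count follows from that. Whether they go together within a class was not tested.

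Gm26917-rich cells of tumour 3 with 2 or more of the 4 genes (83 cells) had 4811 CPM of Gm26870 and 10780 CPM of histone transcripts. The 61 with 0 or 1 had 2951 and 5230 CPM. The median Gm26917 share was 6.42% in the first and 4.33% in the second, and the total UMI medians were 1958 and 1893. In tumour 1, 9 cells with 2 or more had 11760 CPM of Gm26870 and 7 cells with fewer had 1415 CPM. The split used genes named with the gate, and cells are not replicates, so it is a description only.

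One Gm26917-rich cell of tumour 1, with 6952 UMIs, weighs on that library. It held 170 of 262 Jun UMIs, 23 of 46 Myc UMIs, 136 of 314 Gm26870 UMIs and 71 of 91 Junb UMIs of the tumour's Gm26917-rich cells. It held 8 of 26 Hexim1 and 1 of 17 Plk2 UMIs. Gene tests are therefore also given without it.

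By the larger of their acinar and ductal marker sums, 158 of the 166 cells were acinar-type and 8 ductal-type. The acinar-type share was 13 of 18, 2 of 2 and 143 of 146 Gm26917-rich cells, and 491 of 1371, 45 of 246 and 1549 of 2177 Gm26917-low cells. The 23 acinar markers, digestive enzymes and acinar transcription factors, summed to 5504, 6148 and 12400 CPM in Gm26917-rich cells and to 8257, 4834 and 16490 CPM in Gm26917-low cells. Free RNA held 6825, 5593 and 9113 CPM, so in tumours 1 and 2 the acinar sum of Gm26917-rich cells was near the free RNA level; the part of free RNA in these acinar-type calls was not tested.

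Ductal markers summed to 4621, 2254 and 4255 CPM in Gm26917-rich cells, below the 12710, 11850 and 9810 CPM of Gm26917-low cells. Free RNA held 5874, 4878 and 4820 CPM, above the Gm26917-rich sum in every tumour; that of tumour 2 rests on 11 UMIs. Epcam, the surface protein of the sort, had 101 and 298.7 CPM in Gm26917-rich cells of tumours 1 and 3, from 4 and 90 UMIs, against 537.2 and 618.3 CPM in Gm26917-low cells; free RNA held 197.3 and 157.1 CPM. The fibroblast markers Col1a1, Col1a2, Col3a1, Dcn, Lum, Pdgfra and Pdgfrb and the hepatocyte markers were at 0 in the Gm26917-rich cells of all tumours. Endothelial, myeloid, lymphoid, erythroid, endocrine and tuft lists each summed to at most 4 UMIs in any tumour's Gm26917-rich cells. On so few UMIs their CPM cannot be ordered: in tumour 1 the myeloid list had 50.5 CPM from 2 UMIs in Gm26917-rich cells and 9.85 CPM in Gm26917-low cells, and the lymphoid list 50.5 CPM from 2 UMIs in Gm26917-rich cells and 0.328 CPM from 1 UMI in Gm26917-low cells. Mesothelial markers had 26.6 CPM from 8 UMIs in Gm26917-rich cells of tumour 3, against 62.9 CPM in Gm26917-low cells, and were at 0 in Gm26917-rich cells of tumours 1 and 2.

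**Figure D3:**
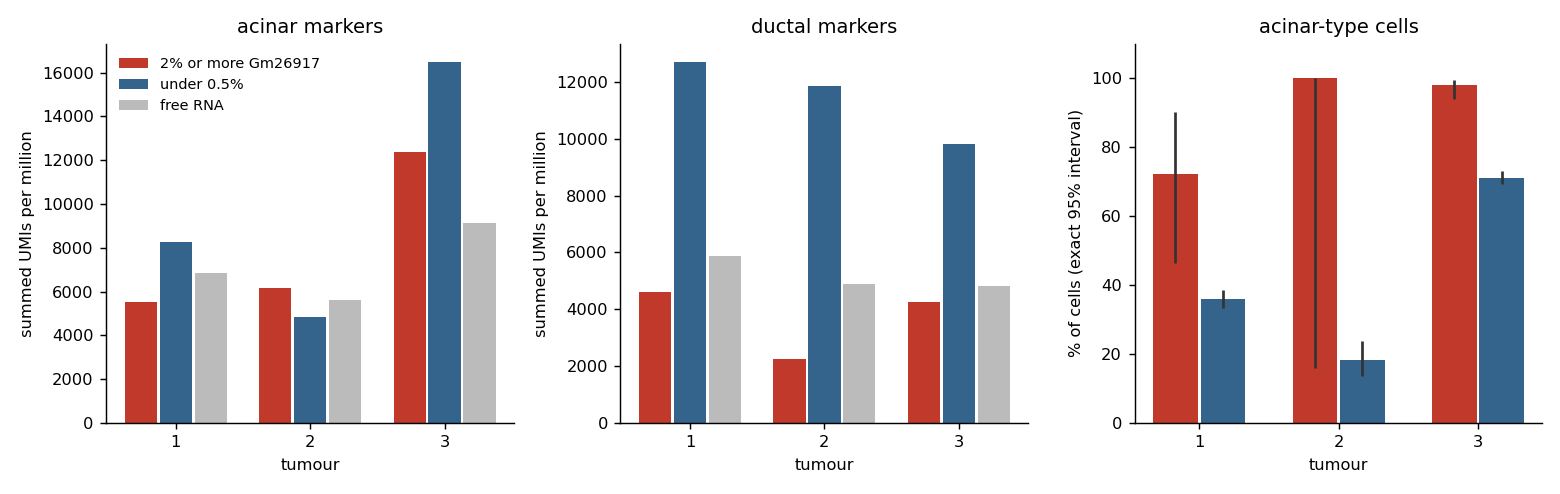
Summed CPM of acinar and ductal markers in Gm26917-rich cells (red), Gm26917-low cells (blue) and free RNA (grey), and the percentage of acinar-type cells with exact 95% intervals. Ductal sums of Gm26917-rich cells, 4621, 2254 and 4255 CPM, lie at or under free RNA, while the acinar-type share is 97.9% in tumour 3.

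Gene tests compared sums per tumour and class, leaving out Gm26917, by edgeR's quasi-likelihood test with a term for the tumour; calls have a Benjamini-Hochberg adjusted p under 0.05. Only tumours 1 and 3 gave sums of 10 or more Gm26917-rich cells (39606 and 301323 UMIs), so the test rests on 2 such sums and 2 residual degrees of freedom. Of 6972 genes besides those named with the gate, 820 (11.8%) were higher and 449 (6.44%) lower in Gm26917-rich cells. The direction was the same in tumours 1 and 3 for 778 and 446 of them. The median over all genes was -0.12 on the log2 scale, and each list below is set beside that value and those shares. A gene was tested if it reached 18.9 CPM in 2 of the 7 sums. Of the 6972 genes, 988 reached this only through the Gm26917-rich sums, where being tested already required a high level, and 369 of the 820 higher genes were among them. Of the 5984 genes that would pass without those sums, 451 (7.54%) were higher and 449 (7.5%) lower. The lower calls depended on the fit. DESeq2 called 495 higher and 89 lower genes, and edgeR without the middle sums 749 and 133. With sums of any number of cells 495 were higher and 182 lower, and then 155 and 2 without tumour 1 and 140 and 19 without tumour 3.

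Histone transcripts were high in Gm26917-rich cells. Of the 67 genes named Hist, 56 were tested, 54 rose in Gm26917-rich cells and none fell. Of the 56, 28 were tested only through the Gm26917-rich sums; of the other 28, 26 rose, with a median log2 difference of 3.2. A shorter list of 20 histone genes had 17 of 19 tested members higher, with a median of 2.04. Of its 15 members that would be tested without the Gm26917-rich sums, 13 rose (median 2.02). All Hist genes summed to 11260 and 8718 CPM in Gm26917-rich cells of tumours 1 and 3 (17010 CPM in the 2 cells of tumour 2), against 1836 and 1539 CPM (1475 in tumour 2) in Gm26917-low cells and 4131, 2318 and 4167 CPM in free RNA. Levels were higher in both tumours for 52 of the 56 tested genes, and Hist1h3b and Hist1h4j were listed at 0 in the Gm26917-rich cells of tumour 1. By class, 5 of 5 linker histones (Hist1h1), 10 of 11 Hist1h2a, 12 of 13 Hist1h2b, 8 of 8 Hist1h3 and 10 of 10 Hist1h4 genes rose.

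The levels of single histone genes show the range. Hist1h1d, a linker histone, had 732.2 and 544.3 CPM in Gm26917-rich cells and 39.4 and 56.1 CPM in Gm26917-low cells (log2 difference 3.65 ± 0.33 SE, edgeR adjusted p = 2.25e-25); 17 of its 29 UMIs in tumour 1 came from 1 cell. Hist1h2ac had 479.7 and 351.8 CPM in Gm26917-rich cells, against 17.1 and 20.8 CPM in Gm26917-low cells (4.34 ± 0.33, adjusted p = 7.1e-36). Its UMIs came from 10 of 18 and 60 of 146 Gm26917-rich cells. Hist1h2ap, the most abundant histone transcript of Gm26917-low cells in tumour 1, had 404 and 179.2 CPM in Gm26917-rich cells and 431.8 and 114.2 CPM in Gm26917-low cells (0.4 ± 0.34, adjusted p = 0.451). Hist1h2bc had a log2 difference of 0.31 (adjusted p = 0.576).

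**Figure D4:**
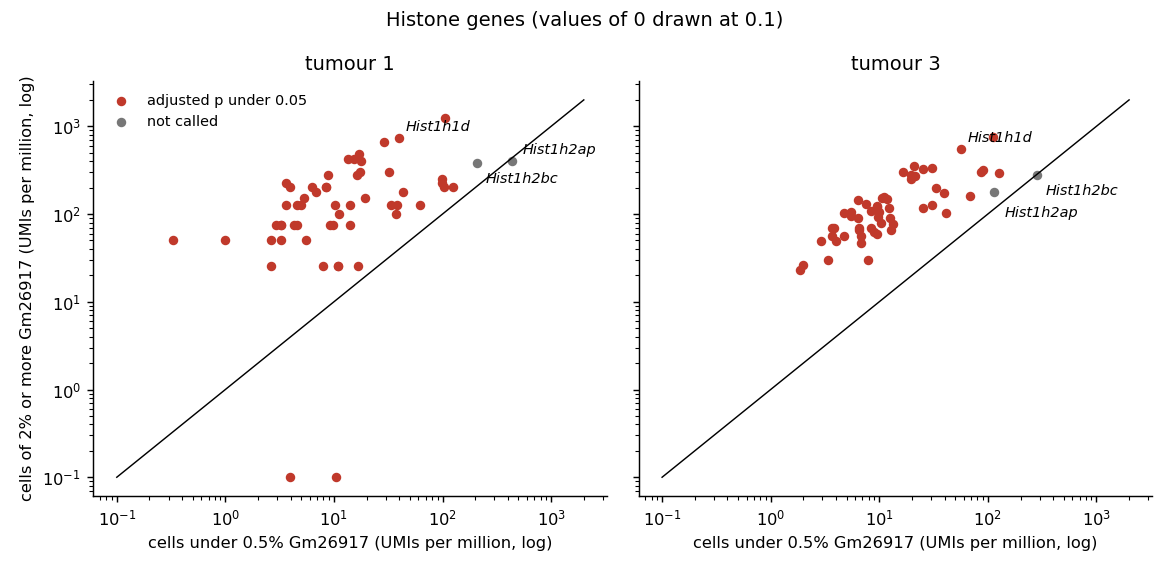
CPM of the 56 tested histone genes in Gm26917-rich cells (vertical, log) against Gm26917-low cells (horizontal, log) of the same tumour; the line marks equal levels. Most points lie above the line in both tumours, with Hist1h2ap and Hist1h2bc on or near it.

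Annotated histone transcripts differ in whether they end at the stem-loop or run past it. The stem-loop letters CTTTTNAGAG were found in 34 of 67 Hist genes, and in 1.87% of all annotated genes. The site of Hist1h1d, at chr13:23555788-23555803 (plus strand, mm10), is followed by 4883 annotated bases, and that of Hist1h2ap, at chr13:21833028-21833043 (minus strand), by 2. These 2 genes do not stand for the rest. Of 13 tested genes with 100 or more annotated bases after the letters 13 rose (median 3.09). With under 100 bases 16 of 17 rose (median 3.61), and without the letters 25 of 26 (median 3.76). The sites are printed with the matched letters in capitals, because the letters do not distinguish the gene that rose from the one with no call.
Hist1h1d: gctCTTTTCAGAGcca
Hist1h2ap: gctCTTTTCAGAGcca

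Of 29 tested S phase genes 1 rose and none fell, with a median of 0.08, and the 1 was Slbp, which encodes the protein that binds the histone stem-loop. Slbp had 176.7 and 404.9 CPM in Gm26917-rich cells, against 44.6 and 68.7 CPM in Gm26917-low cells (2.55 ± 0.33, adjusted p = 1.39e-12); 38 of its 122 UMIs in tumour 3 came from 1 cell. Pcna, the replication clamp, had 101 and 175.9 CPM in Gm26917-rich cells and 111.3 and 117 CPM in Gm26917-low cells (0.49 ± 0.36, adjusted p = 0.368). Of 30 genes of G2 and M phase 6 rose (median 0.24), among them Cenpe, a centromere motor, at 1.83 ± 0.34 (adjusted p = 1.71e-06), and the proliferation marker Mki67 at 1.05 ± 0.33 (adjusted p = 0.0132).

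Satellite-like transcripts that share 25-base words with Gm26870, a gene named with the gate, were high in the same cells. Their levels may not be separate from its own. Gm10800 had 681.7 and 527.7 CPM in Gm26917-rich cells (614.8 in tumour 2, from 3 UMIs), against 12.5 and 13.6 CPM (7.56 in tumour 2) in Gm26917-low cells and 29.7 and 25.4 CPM in free RNA. Its log2 difference was 5.45 ± 0.35, and it was called higher, but its adjusted p is not read for the reason given below. Gm10801, Gm10719 and Gm10721 were also called higher, on 5, 2 and 3 UMIs in tumour 1 and 15, 16 and 10 in tumour 3, with at most 1.31 CPM in Gm26917-low cells of these tumours, so their fitted differences are imprecise. All 4 were tested only through the Gm26917-rich sums, which fixed their direction. Of the satellite and nuclear noncoding RNAs 7 would have been tested without those sums, and 2 of these rose and none fell.

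Not every nuclear RNA was higher. Snhg12, a host of small nucleolar RNAs, had 1389 and 1118 CPM in Gm26917-rich cells and 111.6 and 150.7 CPM in Gm26917-low cells (3.2 ± 0.34, adjusted p = 1.64e-18); 30 of its 55 UMIs in tumour 1 came from 1 cell. Malat1 had 3863 and 3667 CPM in Gm26917-rich cells and 3953 and 6355 CPM in Gm26917-low cells (-0.46 ± 0.46, adjusted p = 0.533); in tumour 2 it had 5738 CPM from 28 UMIs in Gm26917-rich cells and 4549 CPM in Gm26917-low cells, and within acinar-type cells the difference was 0.2. Neat1, the scaffold of paraspeckles, gave 0.01 ± 0.37 (adjusted p = 0.988). Gm42418 gave 1.43 ± 0.93 (adjusted p = 0.294), its spread between sums being wide, and AY036118 gave 1.34 ± 0.54 (adjusted p = 0.0673).

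Among AP-1 and immediate early genes besides Jun and Plk2, 19 of 34 rose and 2 fell, with a median of 1.16; of the 28 that would be tested without the Gm26917-rich sums, 15 rose. Junb had 2298 and 683.7 CPM in Gm26917-rich cells, against 179.9 and 265.7 CPM in Gm26917-low cells (2.44 ± 0.34, adjusted p = 8.16e-11); free RNA in tumour 3 held 1551 CPM. Ier5, a growth-factor and heat-induced gene, had 1035 and 534.3 CPM in Gm26917-rich cells and 64.7 and 113.3 CPM in Gm26917-low cells (2.98 ± 0.32, adjusted p = 5.82e-18). Gadd45b, a stress-induced activator of MAP kinase signalling, had 353.5 and 461.3 CPM in Gm26917-rich cells and 36.4 and 60.1 CPM in Gm26917-low cells (3.08 ± 0.34, adjusted p = 1.19e-17).

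The 2 that fell were Fos and Fosb. Fos, the usual partner of Jun in AP-1, had 75.8 and 222.4 CPM in Gm26917-rich cells, against 264.6 and 614.1 CPM in Gm26917-low cells (-1.42 ± 0.39, adjusted p = 0.00327). Fosb had 50.5 and 69.7 CPM in Gm26917-rich cells and 74.2 and 280.2 CPM in Gm26917-low cells (-1.68 ± 0.44, adjusted p = 0.00188). Fos was at 2514 CPM in the free RNA of tumour 3, above both classes. Egr1 and Atf3, 2 further immediate early genes, gave 0.53 ± 0.35 and 0.66 ± 0.36 (adjusted p = 0.303 and 0.191).

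Of 23 tested genes of P-TEFb and transcription elongation besides Hexim1, 6 rose and none fell (median 0.33); 5 of these 6 would be tested without the Gm26917-rich sums. Polr2a, the largest subunit of RNA polymerase II, had 252.5 and 268.8 CPM in Gm26917-rich cells and 58.1 and 53.3 CPM in Gm26917-low cells (2.35 ± 0.32, adjusted p = 3.97e-11). Brd2, a bromodomain protein, rose by 2.18 ± 0.33 and Cdk12, an elongation kinase, by 1.87 ± 0.36 on the log2 scale (adjusted p = 1.9e-09 and 4.24e-06). Mepce, the capping enzyme of the 7SK RNA that holds HEXIM1, rose at 2.97 ± 0.44 (adjusted p = 5.81e-10), though it was at 0 in the Gm26917-rich cells of tumour 1 and was tested only through the Gm26917-rich sums. The kinase and its partners did not pass the test. Cdk9 gave 0.18 ± 0.54, its cyclin Ccnt1 0.31 ± 0.54 and the 7SK protein gene Larp7 -0.01 ± 0.46 (adjusted p = 0.855, 0.738 and 0.988).

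In the MYC network besides Myc, 3 of 11 rose and none fell (median 0.47). They were Mlxipl, Pvt1 (the noncoding neighbour of Myc) and Fbxw7 (which marks MYC for degradation), on 2, 1 and 2 UMIs in tumour 1 and 9, 14 and 14 in tumour 3, and Mlxipl and Pvt1 were tested only through the Gm26917-rich sums. Max, the partner of MYC, gave 0.12 ± 0.53 (adjusted p = 0.909). Of 40 ribosome biogenesis genes that MYC is known to activate, 3 rose and 3 fell, with a median of 0.01, shares near those of all tested genes. Nop56, a box C/D protein, had 959.5 and 769.9 CPM in Gm26917-rich cells, against 352.3 and 300.7 CPM in Gm26917-low cells (1.4 ± 0.34, adjusted p = 0.000718). Ncl and Npm1, the main nucleolar proteins, gave 0.14 ± 0.43 and -0.67 ± 0.45 (adjusted p = 0.865 and 0.308).

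Of 20 tested p53 targets besides Plk2, 13 rose and 1 fell (median 1.5); of the 17 that would be tested without the Gm26917-rich sums, 11 rose. Ddit4, an inhibitor of mTORC1, had 454.5 and 670.4 CPM in Gm26917-rich cells and 96.9 and 165.8 CPM in Gm26917-low cells (2.14 ± 0.33, adjusted p = 8.06e-09). Mdm2, which degrades p53, had 75.8 and 152.7 CPM in Gm26917-rich cells and 41 and 56.4 CPM in Gm26917-low cells (1.42 ± 0.38, adjusted p = 0.00299). The cell cycle inhibitor Cdkn1a had 1212 and 215.7 CPM in Gm26917-rich cells and 132.3 and 162.9 CPM in Gm26917-low cells, but 41 of its 48 UMIs in tumour 1 lay in 1 cell and free RNA in tumour 3 held 392.2 CPM. Its call (1.7 ± 0.33, adjusted p = 5.66e-06) was lost without the cell of most UMIs (adjusted p = 0.292). Trp53 itself gave -0.09 ± 0.41 (adjusted p = 0.913), and Bax, a death effector, -0.66 ± 0.37 (adjusted p = 0.218).

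In the integrated stress response 4 of 14 rose (median 0.67), led by its transcription factor Atf4 with 883.7 and 534.3 CPM in Gm26917-rich cells and 156.9 and 190.8 CPM in Gm26917-low cells (1.9 ± 0.33, adjusted p = 2.97e-07). Of the 12 members that would be tested without the Gm26917-rich sums, 2 rose (median 0.43). Of 14 heat shock genes 2 rose and 2 fell (median -0.18), and of 8 NF-kB genes 4 rose and 2 fell (median 0.94). Of the 6 NF-kB genes that would be tested without the Gm26917-rich sums, 2 rose and 2 fell. Their median was -0.27, beside -0.28 over all genes that would be tested so. Nfkbia, the inhibitor of NF-kB, rose at 2.24 ± 0.32 (adjusted p = 3.76e-10), with 398.2 CPM in Gm26917-rich cells of tumour 3 and 770.1 CPM in its free RNA. Of 26 splicing and speckle genes 5 rose and none fell (median 0.54), with Rsrp1 at 2.72 ± 0.32 and Clk1, a splicing kinase, at 1.27 ± 0.37 (adjusted p = 7.84e-15 and 0.00678). Errfi1, a feedback inhibitor of EGFR, had 378.7 and 494.5 CPM in Gm26917-rich cells, against 38.1 and 57.8 CPM in Gm26917-low cells (3.2 ± 0.34, adjusted p = 2.87e-19).

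**Figure D5:**
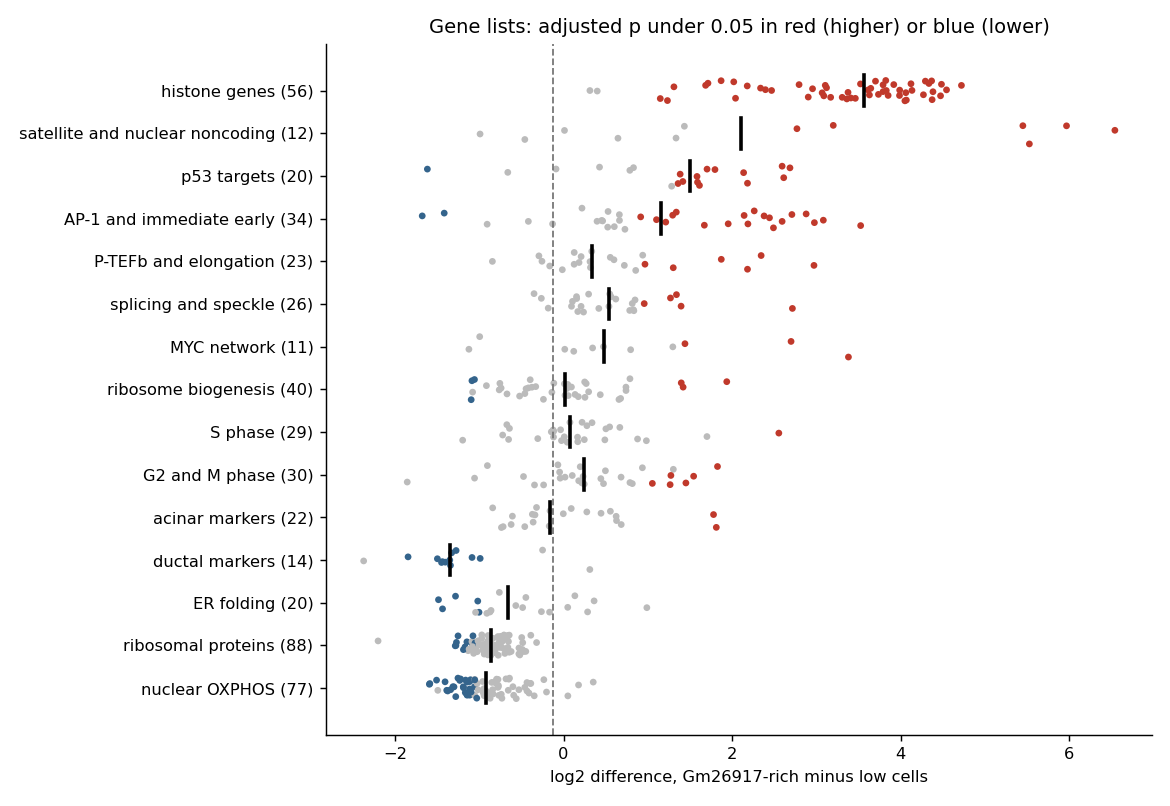
Log2 difference between Gm26917-rich and Gm26917-low cells for each tested gene of 15 lists (number tested in parentheses); red and blue points passed the edgeR test, black bars are list medians and the dashed line is the median of all genes, -0.12. Histone genes, of which 28 of 56 were tested only through the Gm26917-rich sums, have a median of 3.57, and nuclear OXPHOS genes one of -0.92.

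Calls among ribosomal protein genes and nuclear genes of respiration were downward, and those among mitochondrially encoded genes were upward. Of 88 tested ribosomal protein genes none rose and 10 fell (median -0.86), and of 77 nuclear genes of oxidative phosphorylation none rose and 29 fell (median -0.92). Cox5a, a subunit of cytochrome oxidase, had 50.5 and 255.5 CPM in Gm26917-rich cells and 593 and 593.3 CPM in Gm26917-low cells (-1.59 ± 0.39, adjusted p = 0.000716). Of the mitochondrially encoded genes, 4 of 13 rose and none fell (median 0.15), with mt-Nd5 at 3207 and 2738 CPM in Gm26917-rich cells and 774.6 and 845.3 CPM in Gm26917-low cells (1.84 ± 0.39, adjusted p = 5.22e-05). Of 20 ER folding and secretory genes none rose and 5 fell (median -0.66). Of the remaining lists, 3 of 21 hypoxia and glycolysis genes rose and 3 fell (median -0.61), 3 of 23 epithelial and progenitor transcription factors rose and 3 fell (median -0.05), and 2 of 10 BCL2 family and apoptosis genes rose (median 0.34). Without members tested only through the Gm26917-rich sums, 2 of 20 of these transcription factors and 1 of 9 of these apoptosis genes rose. Of 5 interferon genes and of 4 YAP targets 1 fell in each, and of 9 EGFR ligands and feedback genes 1 rose and 1 fell.

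Calls among ductal and squamous markers were downward as well. Of 14 tested ductal markers 11 fell and none rose (median -1.35), and Krt19, a ductal keratin, had 833.2 and 829.7 CPM in Gm26917-rich cells, against 2358 and 1877 CPM in Gm26917-low cells (-1.33 ± 0.41, adjusted p = 0.0119). Of 7 squamous markers 3 fell (median -1.1). Among 22 acinar markers 2 rose and none fell (median -0.17): Ptf1a and Rbpjl, which encode subunits of the acinar transcription complex. Rbpjl had 126.2 and 312 CPM in Gm26917-rich cells and 52.2 and 87.4 CPM in Gm26917-low cells (1.81 ± 0.34, adjusted p = 3.85e-06).

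The 12 largest falls that met the naming rule rested on few UMIs. Ppt1, Specc1, Ahsa2, Egln1, Cndp2, Gldc and Avil had none among the 340929 UMIs of both Gm26917-rich sums, where 3 UMIs over both sums would be 8.8 CPM. At that level Ppt1, a lysosomal thioesterase with 25.2 CPM in Gm26917-low cells, would be 2.86-fold lower. Gldc, the glycine decarboxylase, with 19.9 CPM there, would be 2.26-fold lower. Both were picked as being among the largest falls, so these folds are not firm lower bounds. In tumour 2, which gave no Gm26917-rich sum to the test, Ppt1 had 204.9 CPM from 1 UMI in Gm26917-rich cells. Its level in Gm26917-low cells there was 30.25 CPM. Cyb5r4, Cp, Hcfc1r1, Pex2 and Flna had 1 UMI. The 12 largest rises were the satellite-like genes above with Gm45184, Gm20594, 4930558N11Rik, B430305J03Rik, Pcdh17, Txndc16, C330011M18Rik and Gm26910. Of the 60 UMIs of Gm45184 in tumour 1, 45 lay in 1 cell, and of the 19 of 4930558N11Rik in tumour 3, 18 lay in 1 cell.

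Higher and lower genes were compared for annotated structure. In GENCODE annotation, 117 of 818 (14.3%) higher genes had a single exon, against 2 of 449 (0.445%) lower genes and 2.87% of all tested. Leaving out the histone genes, 66 of 764 higher genes (8.64%) were single-exon, against 2.14% of tested genes. Of 148 single-exon genes other than histones, 66 rose and 2 fell (44.6% and 1.35%); of 6768 genes with more exons, 701 rose and 447 fell (10.4% and 6.6%). Genes tested only through the Gm26917-rich sums add to the higher side. Among genes that would be tested without those sums, 31 of 105 single-exon genes other than histones rose (29.5%), against 393 of 5849 genes with more exons (6.72%). The median annotated span was 23188 bases for higher, 13601 bases for lower and 23408 bases for all tested genes. This comparison was made after the gene lists were seen.

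The comparison was repeated within acinar-type cells, 13 and 143 of them Gm26917-rich in tumours 1 and 3. There 534 of 4478 genes were higher (11.9%) and 94 lower (2.1%). Of the 820 genes higher in all cells, 598 were tested there and 497 were higher again; of the 449 lower, 404 were tested, 82 were lower again and 389 had the same sign, as did all 598 of the higher genes. Of 49 Hist genes 44 were higher. Acinar-type cells were picked by the sums of these acinar and ductal markers. Tests of the markers within them are therefore not independent of the choice of cells and are no check on lineage. Of 13 ductal markers 1 rose and none fell (median -0.4), and Krt19 gave -0.51 (adjusted p = 0.447). Of 20 acinar markers 6 fell and none rose (median -0.99); Ctrb1, a chymotrypsinogen, gave -1.58 (adjusted p = 0.02) and Ptf1a 0.96 (adjusted p = 0.165). Of oxidative phosphorylation genes 5 of 75 fell (median -0.8), and of ribosomal protein genes 1 of 85 fell (median -0.8). The median of all genes in this comparison was -0.09.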

How the data were processed

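Each deposited matrix holds raw UMI counts for all possible barcodes, neither normalized nor filtered for cells. Per the file headers, Cell Ranger 3.0.2 wrote them. The submitters' processing notes name Cell Ranger 3, Seurat 3.1 and mm10; the authors' annotation was not given in the sources used here, and gene positions are from GENCODE for the same build. The labels' protocols name 2 versions of the 3' kit, and which applies was not settled. The cells, the gene lists and the tests were chosen with earlier results of these data known.

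UMIs were summed per tumour and class of Gm26917 share (2% or more, 0.5% to under 2%, under 0.5%) without Gm26917, keeping sums of 10 or more cells. This gave 7 sums and 2 residual degrees of freedom, with a biological coefficient of variation of 0.181. edgeR 4.0.16 (R 4.3.3; filterByExpr, TMM, glmQLFTest) was fitted with the tumour as a block, since the classes of a tumour come from 1 animal, and p-values were Benjamini-Hochberg adjusted over all genes. Tested on simulated data for this comparison (6509 genes tested), the procedure recovered 33.3% of genes changed by 2 on the log2 scale. It recovered 5.66% of those changed by 1, with 1 false call, so a gene that did not pass may still differ. The simulation gave all sums the same gene profile and all genes the same spread, and changed only a small part of the genes. It held no single cells that weigh on a sum, so its rates, the false call included, may not carry over to these data. DESeq2 1.42.0 was an alternative, as were other gates, depths, cell filters and sets of sums; scrublet scores came from scanpy 1.11.5 (Python 3.11.15). Genes were named if they had the same direction in tumours 1 and 3 and 20 CPM or more in the higher class (the 12 largest differences each way), or were among up to 4 list members of smallest adjusted p, or define a list by role; Hist1h3b, Hist1h4j and Mepce were named after their values were seen. Intervals cover counting error only.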

Additional observations from a re-analysis of the deposited data

How the results depend on the processing

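The main counts, 820 higher and 449 lower of 6972 tested genes, changed by over 1.5 times under several settings, and the cause was not tested. Several settings also tested fewer genes, so counts are given with the number tested. In acinar-type cells 11.9% of tested genes were higher, against 11.8% in the main comparison. The higher count was 495 with DESeq2, 495 with sums of any number of cells, 534 in acinar-type cells and 515 with every cell thinned to 1000 UMIs. The lower count was 279 at a gate of 4%, 120 against every cell under 2%, 89 with DESeq2, 133 without the middle sums, 182 with sums of any number of cells, 94 in acinar-type cells, 180 thinned and 856 without the 5% of cells with the highest doublet scores. Settings chosen after seeing the data gave, for higher and lower genes, 232 and 61 at 2000 UMIs or more, 15 and 2 in ductal-type cells (all with sums of any number of cells), and 368 and 49 in thinned acinar-type cells. Leaving out tumour 2 gave 896 higher and 508 lower genes. With sums of any number of cells, leaving out tumour 1 or 3 gave 140 to 155 higher and 2 to 19 lower genes. Without the replicate block, that is without the pairing of classes by tumour, 810 were higher and 344 lower of 6972. The share of cells in the gate was 0.699% and 3.42% in tumours 1 and 3 at a gate of 4%, 7.06% in tumour 3 at 1%, 2.10% and 8.02% in tumours 1 and 3 at 2000 UMIs, 0.568%, 0.0% and 0.462% among ductal-type cells and 2.48%, 4.17% and 6.67% among acinar-type cells. Directions turned in acinar-type cells for Cxcl5 (0.51), Areg (0.19), Krt14 (0.30) and Ly6d (0.16), in ductal-type cells for Spcs1 (0.06), Canx (0.75), Ifitm3 (1.17) and Ly6d (0.87), in thinned acinar-type cells for Onecut2 (0.21) and Spp1 (0.02), and without tumour 1 for mt-Atp8 (-0.01). The median of all genes was -0.57 with no filter on low counts, against -0.12. At sums of 10 or more cells, cells with 2000 UMIs and data without tumour 1 or 3 left no residual degrees of freedom, so they gave differences but no test, and ductal-type cells gave no Gm26917-rich sum. Calls rest on 39606 UMIs of Gm26917-rich cells in tumour 1, so genes with few UMIs there were not resolved.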
